A study of Drosophila melanogaster with 4 samples.

Results

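The 8 circadian clock genes examined here were per, tim, Clk, cyc, vri, Pdp1, cry and cwo, taken by their current FlyBase symbols from a table of 13932 genes. All 8 were present, and all 8 passed the filter of a mean of at least 1 RPKM. RPKM is a read count scaled to gene length and library size. The table holds 4 RNA-seq libraries from guts of wild-type Drosophila melanogaster females of the laboratory strain Oregon R-C, made to find genes that respond to a lack of manganese. One pair of libraries came from flies on a chemically defined diet with 0 ppm manganese added, the other from flies on the same diet with 5 ppm. On each diet, 10 females and 10 males laid eggs for 5 days, and newly emerged daughters spent a further 5 days on fresh food of that kind before dissection. The table's headers call the libraries of each diet B and C. The sources used here do not give what the letters stand for, how many guts went into a library, the time of dissection or the light regime. They also do not say whether B and C were independent cohorts of flies, so p-values measure the spread among 4 libraries that may differ for technical reasons alone.

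The fly clock is a transcriptional feedback loop that runs in clock neurons of the brain and also in peripheral tissues, among them the gut epithelium and the Malpighian tubules. CLOCK and CYCLE, encoded by Clk and cyc, bind as a dimer to E-boxes and activate per, tim, vri, Pdp1 and cwo, whose products feed back on the loop. In fly heads under light and dark cycles, transcripts of these 5 targets are known to be high around dusk and early night, those of Clk and cry around dawn, and cyc is not rhythmic. The names dusk genes and dawn genes below refer to these phases in heads, as no time course of the gut is among these data. If guts keep the same phases, guts taken at some pairs of hours would differ in opposite directions in these genes. The 4 libraries are given by diet and by letter to look for such a difference, and its cause was not tested.

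The libraries held 24399762 to 28010940 reads by the step size of their low values, so 3 reads in 1000 bases of gene model are worth 0.107 to 0.123 RPKM. As a check of the tissue, 6 enterocyte markers, such as the maltase gene Mal-A1 and the protease gene Jon65Aiii, summed to 12867 to 14478.5 RPKM, and 6 enteroendocrine markers to 158 to 173 RPKM. A list of 5 neuron markers summed to 2.66 to 3.09 RPKM. Among 6 photoreceptor markers, inaC was at 0 in all 4 libraries and ninaE, the major rhodopsin, at 0.202 to 0.383 RPKM, while norpA, a phospholipase C also used outside the eye, lay between 5.55 and 5.92. In ovary RNA the no-manganese library C stood apart. There 8 ovary and eggshell markers summed to 477 RPKM, against 0.440 RPKM in B of that diet. The sums were 1.07 and 3.06 RPKM in B and C of the 5 ppm diet. The no-manganese library B stood apart in other genes, such as the tubule gene Irk3 and the neuropeptide gene Pdf, given below.

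By mean level, the clock genes fell into an order that both C libraries kept in full. In both B libraries cry lay above vri, and in the no-manganese library B Pdp1 also lay above tim. The highest were tim, at 61.6 to 109.5 RPKM, and Pdp1, at 63.1 to 95.9, whose ranges overlap. After them came vri at 27.0 to 74.2 and cry at 30.9 to 48.0 RPKM, which overlap as well, and the top of vri also reaches into the ranges of Pdp1 and tim. Below these, cwo at 19.4 to 23.5, cyc at 11.9 to 14.2, Clk at 7.24 to 10.6 and per at 2.56 to 6.29 RPKM followed with no overlap between neighbours. By mean level, tim lay above 93.6% of the genes in the table and per above 58.0%. The reads behind per were whole numbers in each library, 303 and 749 in B and C without manganese and 359 and 526 in B and C with it.

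Between the diets, no clock gene was called. The limma test on log2(RPKM + 1) called 0 of the 8 at an adjusted p under 0.05, beside 0% of the 7556 genes tested. At an unadjusted p under 0.05 it held 1 of the 8, cry, beside 5.84% of all tested genes. The values of cry and cyc did not overlap between the diets, 2 of 8 genes, beside 36.9% of all tested genes. The median log2 difference, no manganese minus 5 ppm, was 0.13 over the 8 and 0.02 over all tested genes.

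By letter, the dusk genes per, tim, vri and Pdp1 were higher in library C than in B on both diets, while Clk and cry, the dawn genes, were lower in C on both diets. The fifth dusk gene, cwo, did not follow the other 4: its log2 difference, B minus C, was -0.0023 without manganese and 0.26 with 5 ppm. The 4 dusk genes higher in C compare with 34.2% of all tested genes that were higher in C on both diets. Clk and cry make 3 with cyc, beside 30.4% of all tested genes that were higher in B on both diets. For per, tim, vri and Pdp1, both C libraries lay above both B libraries (no overlap with C higher in 23.5% of all tested genes), and Clk alone had both B libraries above both C libraries (20.2%). In a fit with diet and letter, limma called 0 of the 8 genes by letter, beside 0% of all tested genes. At an unadjusted p under 0.05 it held 5 of the 8, per, tim, vri, Clk and cry, beside 14.4% of all tested genes; Pdp1, cyc and cwo were not below it.

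**Figure D1:**
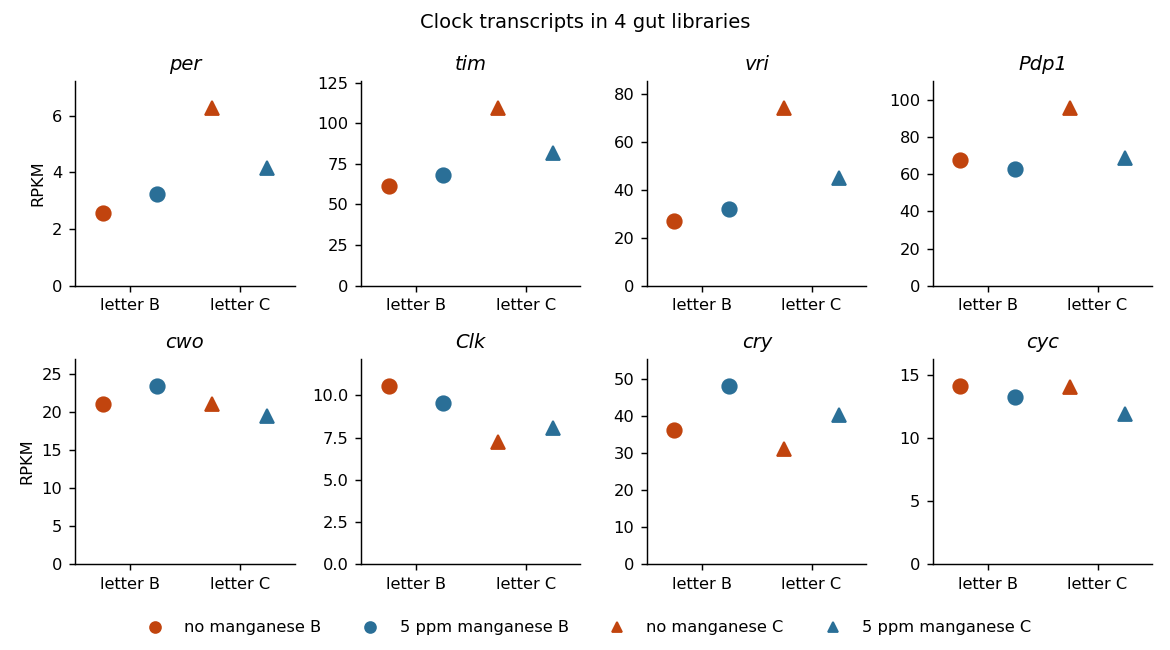
RPKM (vertical axes, each from 0) of the 8 clock genes in the 4 libraries, grouped on the horizontal axis by letter; circles are B, triangles C, orange no manganese and blue 5 ppm manganese. In per, tim, vri and Pdp1 both triangles lie above both circles, with the no-manganese library C highest, and in Clk both triangles lie below both circles.

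PERIOD and TIMELESS are the main repressors of the loop, which enter the nucleus together and inhibit CLOCK and CYCLE. Without manganese, per had 2.56 RPKM in B and 6.29 in C, and with 5 ppm it had 3.25 in B and 4.15 in C. The B libraries of per are therefore the low ones and the C libraries the high ones, with the no-manganese libraries at the 2 ends. Its C level was 2.45-fold its B level without manganese and 1.28-fold with it. Exact Poisson 95% intervals of its reads, 323 to 398 in the 5 ppm library B and 482 to 573 in C, do not overlap. They cover counting error only and are not scaled to depth, which was 24399762 reads in that B and 28010940 in C. By diet, per had a log2 difference of 0.12 ± 0.37 SE (limma, adjusted p = 0.978), and by letter, B minus C, one of -0.65 ± 0.21 SE (adjusted p = 0.321). The letter value of this low gene depended on the scale, at -0.36 with a pseudocount of 5 RPKM and -0.87 with voom on recovered reads, and was not called with either.

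TIMELESS is the partner that light destroys through cryptochrome, and tim repeated the order of per. It had 61.6 RPKM in B and 109.5 in C without manganese, and 67.9 in B and 81.7 in C with 5 ppm. Both C libraries of tim lay above both B libraries, by 1.78-fold without manganese and 1.20-fold with it. The log2 difference by diet was 0.14 ± 0.30 SE (limma, adjusted p = 0.963) and that by letter -0.54 ± 0.16 SE (adjusted p = 0.303). An antisense gene, lncRNA:CR46495, covers 7.74% of the exon bases of tim and a snoRNA on its own strand 2.15%, and whether reads were counted by strand is not known from the sources used here.

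VRILLE is a basic leucine zipper repressor of Clk, and vri varied most of the 8 genes. It had 27.0 RPKM in B and 74.2 in C without manganese, and 32.2 in B and 44.8 in C with 5 ppm. The no-manganese library C was thus far above the other 3, and the 5 ppm library C above both B libraries. The C level was 2.74-fold the B level without manganese and 1.39-fold with it. By diet the log2 difference was 0.24 ± 0.50 SE (limma, adjusted p = 0.962), and by letter -0.94 ± 0.25 SE (adjusted p = 0.267). Pdp1 encodes another basic leucine zipper factor, of which the epsilon form is placed opposite VRILLE as an activator of Clk; other forms are made outside the clock, and the table does not separate them. It had 67.7 RPKM in B and 95.9 in C without manganese, and 63.1 in B and 69.1 in C with 5 ppm. Here the no-manganese library C stood above the other 3, which lay within 63.1 to 69.1 RPKM. The log2 difference of Pdp1 was 0.28 ± 0.19 SE by diet (limma, adjusted p = 0.824) and -0.31 ± 0.12 SE by letter (adjusted p = 0.366).

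The remaining repressor gene, cwo, did not take part in this order. CLOCKWORK ORANGE binds E-boxes and damps transcription from them. It had 21.07 RPKM in B and 21.11 in C without manganese, and 23.5 in B and 19.4 in C with 5 ppm. The no-manganese libraries lay between those with 5 ppm, so the diets overlap. The log2 difference was -0.02 ± 0.12 SE by diet (limma, adjusted p = 0.992) and 0.13 ± 0.10 SE by letter (adjusted p = 0.601). Its reads numbered 2774 to 2915 in a library.

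Of the activators, Clk ran opposite to per, tim, vri and Pdp1 by letter but not to cwo, and cyc varied little. Clk had 10.6 RPKM in B and 7.24 in C without manganese, and 9.53 in B and 8.05 in C with 5 ppm. Both B libraries of Clk lay above both C libraries, by 1.46-fold without manganese and 1.18-fold with it. By diet its log2 difference was -0.00026 ± 0.20 SE (limma, adjusted p = 0.999), and by letter 0.35 ± 0.11 SE (adjusted p = 0.317). cyc had 14.2 RPKM in B and 14.1 in C without manganese, and 13.3 in B and 11.9 in C with 5 ppm. Its values were higher without manganese in both letters, with a log2 difference of 0.15 ± 0.10 SE that was not called (limma, adjusted p = 0.824). By letter cyc was at 0.08 ± 0.09 SE (adjusted p = 0.723).

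Cryptochrome, the blue light photoreceptor of the clock, was the gene with the smallest p between the diets. cry had 36.2 RPKM in B and 30.9 in C without manganese, and 48.0 in B and 40.1 in C with 5 ppm. Both no-manganese libraries lay below both 5 ppm libraries, at 0.755-fold in B and 0.771-fold in C. The log2 difference by diet was -0.38 ± 0.14 SE (limma, unadjusted p = 0.0494, adjusted p = 0.802). With each library left out in turn it ranged from -0.51 to -0.25. Its sign could not turn, since the diets do not overlap. By letter cry was at 0.24 ± 0.08 SE (adjusted p = 0.332), higher in B on both diets. Another gene on the same strand, lncRNA:CR46393, covers 17.4% of the exon bases of cry, and the sources used here do not say how reads were shared between them.

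**Figure D2:**
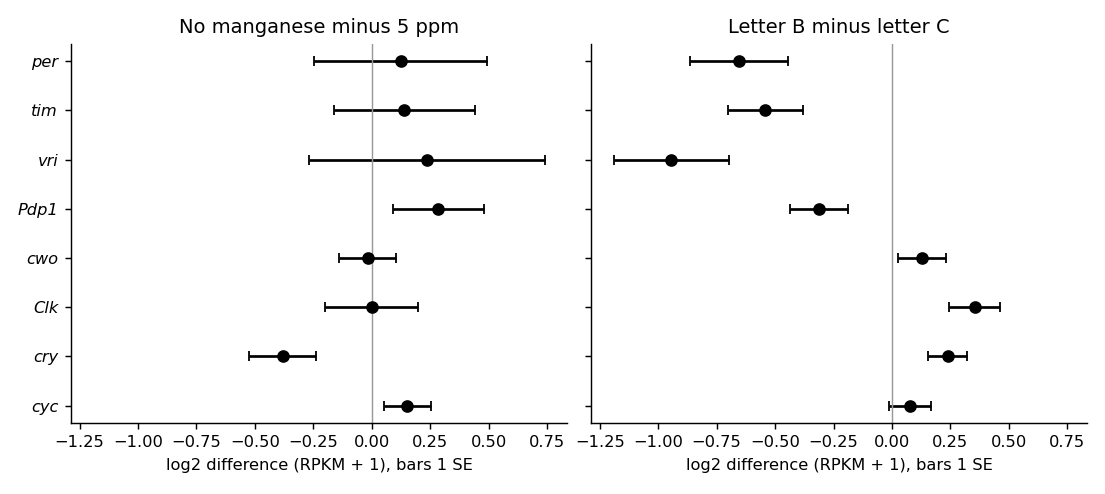
Log2 differences of the 8 clock genes on the RPKM + 1 scale (horizontal axes) by diet at left and by library letter at right; points are limma estimates and bars 1 SE. By letter, per, tim, vri and Pdp1 lie below 0 and Clk and cry above it, while by diet vri has the widest bar, 0.24 ± 0.50. The diet fit leaves letter out, so its bars include the spread between letters. The letter fit includes diet, so bar widths at left and right cannot be compared.

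The diet values of per, tim, vri and Clk turned with the library they rest on. In letter B, the level without manganese was 0.788-fold the 5 ppm level for per, 0.907-fold for tim and 0.840-fold for vri, and in letter C it was 1.52-fold, 1.34-fold and 1.66-fold. Clk stood at 1.11-fold in B and 0.899-fold in C. With cwo, 5 of the 8 genes had diet differences of opposite sign in the letters, beside 39.5% of all tested genes. Without the no-manganese library C, the log2 differences by diet became -0.39 for per, -0.27 for tim, -0.48 for vri and 0.24 for Clk, and that of Pdp1 was 0.04 in place of 0.28. Without the no-manganese library B they were 0.64, 0.55, 0.95 and -0.24, and Pdp1 stood at 0.53. Without the 5 ppm library B, per was at -0.01, Clk at 0.11 and cwo at 0.11. None of these values was called by limma (adjusted p = 0.508 to 0.999 over these 6 genes and the 4 libraries left out). In these fits 1 diet has a single library, which is assumed to vary like the pair of the other diet.

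The dusk and dawn genes can be set against each other within a library, as the mean log2(RPKM + 1) of per, tim, vri, Pdp1 and cwo minus that of Clk and cry. This difference was 0.26 in the no-manganese library B and 0.27 in the 5 ppm library B. It was 1.37 in the no-manganese library C and 0.68 in the 5 ppm library C. The B libraries were therefore nearly level, 0.01 apart, and both C libraries were above them, with 0.69 between the diets in C. By diet the means were 0.82 ± 0.79 (SD, n = 2) without manganese and 0.47 ± 0.29 (SD, n = 2) with it, a difference of 0.34 that is smaller than the spread of the no-manganese pair. The difference by letter, B minus C, was -0.76, made of -1.11 without manganese and -0.41 with 5 ppm. As ratios of RPKM, vri to Clk stood at 2.56 and 3.38 in the no-manganese and 5 ppm libraries B and at 10.3 and 5.57 in the libraries C. These are descriptions with no test, since the genes were chosen by their known phase in heads and with results of these libraries known.

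**Figure D3:**
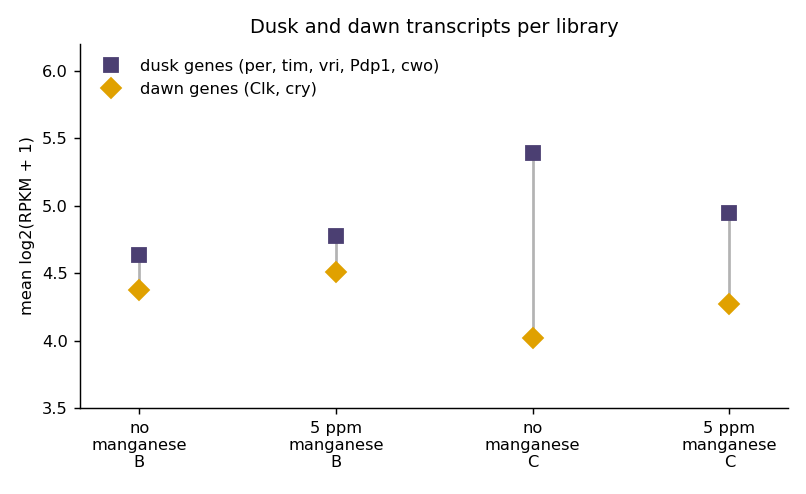
Mean log2(RPKM + 1) (vertical axis, which does not start at 0) of 5 dusk genes (squares) and 2 dawn genes (diamonds) in each library (horizontal axis), with a grey line for the distance between them. The distance is 0.26 and 0.27 in the B libraries and 1.37 and 0.68 in the C libraries.

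Other RNA moved with the letters too, and its part in the clock values was not tested. The 6 fat body markers were each higher in C than in B on both diets, with sums of 350.0 and 864 RPKM in B and C without manganese and 241 and 512 with 5 ppm. They include the yolk protein genes Yp1, Yp2 and Yp3, which ovarian follicle cells also express. Of the 8 ovary markers 6 were higher in C on both diets, beside 34.2% of all tested genes. The 5 ppm values were low, such as 0.072 and 0.150 RPKM for dec and 0.114 and 0.622 for osk in B and C. Of the sums given above, the high one belongs to the no-manganese library C. There per, tim, vri and Pdp1 peaked and Clk and cry were lowest. Within the 5 ppm diet, where the ovary sum was 1.07 and 3.06 RPKM, the B minus C differences were -0.28 for per, -0.26 for tim, -0.46 for vri, -0.13 for Pdp1, 0.26 for cwo, 0.22 for Clk, 0.25 for cry and 0.14 for cyc. Of 3 progenitor markers 2 could be matched. Sox21a was higher in B on both diets, at 6.49 and 4.83 RPKM in B and C without manganese and 6.02 and 3.72 with 5 ppm. The Notch ligand gene Dl, named Delta in the name table, was lower in B without manganese and higher in B with 5 ppm, at 2.29 and 2.51 RPKM in B and C without manganese and 1.93 and 1.49 with 5 ppm. In whole guts, fewer cells of a type and less RNA per cell cannot be told apart.

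Malpighian tubules, which carry a clock of their own and join the gut at the hindgut, were followed by 7 markers. None of these was higher in C on both diets, beside 34.2% of all tested genes, and only 1 of the 7, Oatp58Da, passed the filter. The sums were 37.9 and 27.9 RPKM in B and C without manganese and 33.6 and 25.3 with 5 ppm. Most of each sum was the transporter gene Oatp58Da, at 23.3 to 31.2 RPKM. Uro, the urate oxidase of the tubule, had 1.37 and 0.211 RPKM in B and C without manganese and 0.617 and 0.226 with 5 ppm. The potassium channel gene Irk3 had 2.503 RPKM in the no-manganese library B and at most 0.0901 in the other 3. CapaR, a neuropeptide receptor of the tubule, had 0.314 RPKM in the no-manganese library B, 0.0416 in C and was at 0 in both 5 ppm libraries.

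**Figure D4:**
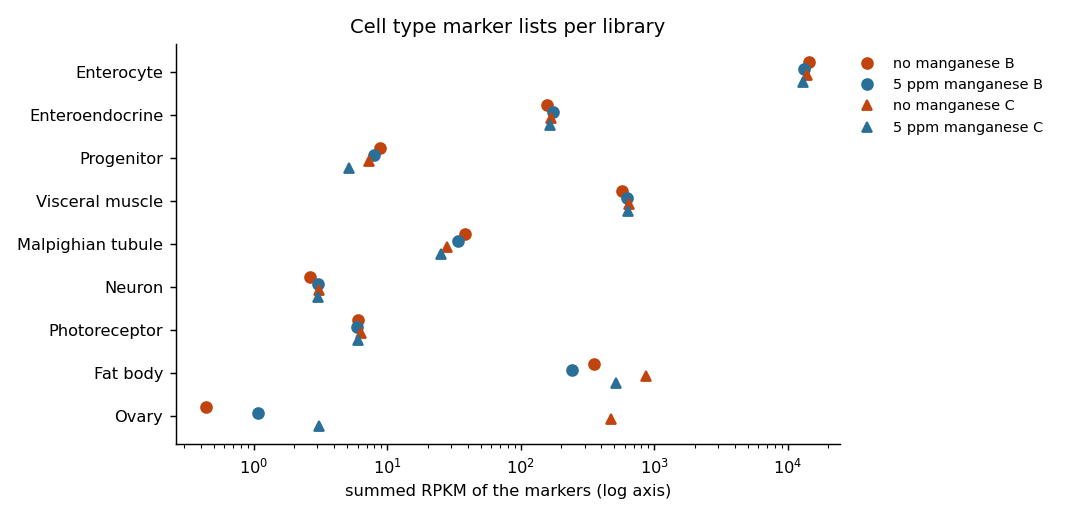
Summed RPKM of 9 marker lists (rows, the progenitor list being Sox21a and Dl) in the 4 libraries, on a log horizontal axis; circles are B, triangles C, orange no manganese and blue 5 ppm. The ovary list spans 0.440 to 477 RPKM and the fat body list is higher in C on each diet, while enterocyte, enteroendocrine and visceral muscle lists lie close together.

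The enzymes that time the loop by modifying its proteins showed no called difference. Of 18 such genes written, 17 matched and were tested, among them the PERIOD kinase DOUBLETIME (dco in the table), the kinase gene sgg and the ubiquitin ligase genes slmb and jet. Between the diets 0 were called by limma, 11 were higher and 6 lower without manganese, and the median log2 difference was 0.07, beside 0.02 over all tested genes. By unadjusted p the leading gene was wdb, a regulatory subunit of protein phosphatase 2A, with 42.9 and 43.2 RPKM in B and C without manganese and 51.6 and 54.2 with 5 ppm. Its values do not overlap between the diets, and its log2 difference was -0.29 ± 0.09 SE (limma, unadjusted p = 0.0308, adjusted p = 0.802). After wdb came tyf, which promotes translation of per, nej, a histone acetyltransferase and coactivator, and ctrip, a ubiquitin ligase that acts on CLOCK. Their log2 differences were -0.31 ± 0.13 SE, -0.39 ± 0.17 SE and -0.24 ± 0.11 SE, each with an adjusted p of 0.802. With 1 library left out in turn they ranged from -0.46 to -0.16 for tyf, from -0.61 to -0.17 for nej and from -0.34 to -0.15 for ctrip. dco itself had 25.8 and 28.2 RPKM in B and C without manganese and 25.9 and 24.7 with 5 ppm.

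By letter this list had 5 genes higher and 12 lower in B, a median log2 difference of -0.03 beside -0.01 over all tested genes, and 0 calls. The letters did not overlap in 6 of the 17 genes, 4 higher in C and 2 higher in B, beside 43.7% of all tested genes in either direction. One of its genes, tws, another regulatory subunit of protein phosphatase 2A, was below an unadjusted p of 0.05 and is named after its value was seen. It had 25.4 and 32.1 RPKM in B and C without manganese and 24.1 and 28.1 with 5 ppm (log2 difference -0.27 ± 0.09 SE, limma, adjusted p = 0.321). The kinase gene nmo was at 2.97 and 4.14 RPKM in B and C without manganese and 2.97 and 3.60 with 5 ppm, again with both C libraries above both B libraries. jet went the other way, with 3.40 and 2.85 RPKM in B and C without manganese and 3.41 and 2.36 with 5 ppm; its log2 difference was 0.29 ± 0.12 SE and that of nmo -0.29 ± 0.12 SE (limma, adjusted p = 0.381 and 0.366).

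Of 12 genes of clock output and signalling, 6 passed the filter on low values, and 0 were called by diet or by letter (limma). takeout, written to, is a circadian output gene tied to feeding in fly heads. It had 64.3 and 36.2 RPKM in B and C without manganese and 29.0 and 36.8 with 5 ppm, so the no-manganese library B stood above the other 3 and the diets overlap. Its log2 difference by diet was 0.55 ± 0.30 SE (limma, adjusted p = 0.822), and 0.14 without the no-manganese library B. Eip75B, a nuclear receptor gene that also acts on the clock, was at 0.15 ± 0.12 SE by diet, and 0.03 without the no-manganese library B. E23, a membrane transporter gene under CLOCK control, was at 0.09 ± 0.18 SE by diet, and -0.10 without the no-manganese library C. Pdfr, the receptor for the clock neuropeptide PDF, was at -0.06 ± 0.20 SE by diet, and 0.16 without the no-manganese library B. The neuropeptide gene Pdf itself had 0.732 RPKM in the no-manganese library B and was at 0 in the other 3. The other 5 genes below the filter did not share a direction. Cyp18a1, a cytochrome P450 that inactivates ecdysone, had 0.151 and 0.860 RPKM in B and C without manganese and 0.134 and 0.340 with 5 ppm. Higher in B on both diets were Ugt35B1, a glucuronosyltransferase gene, with 1.49 and 0.136 RPKM in B and C without manganese and 0.588 and 0.512 with 5 ppm, and the nuclear receptor gene Hr51, with 0.678 and 0.528 without manganese and 1.53 and 0.581 with 5 ppm. trpl, a light-activated channel gene, lay between 0.110 and 0.264 RPKM and Cyp4d21 between 0 and 0.0450, and neither kept a direction by letter.

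The widest range among the clock genes belonged to vri, and genes with the most similar profile were sought by the distance between centred log2(RPKM + 1) values over the 4 libraries. The nearest of 7555 other tested genes was CG5404, with 1.18 and 5.16 RPKM in B and C without manganese and 1.48 and 2.46 with 5 ppm, at a distance of 0.10. Next were atos, with 15.8 and 44.8 RPKM without manganese and 19.4 and 29.8 with 5 ppm, at 0.13, and slgA, a proline dehydrogenase gene, at 0.17. Among the clock genes, per ranked at 12 in nearness to vri, tim at 39 and Pdp1 at 207, while cyc ranked at 4139, cwo at 4986, cry at 6965 and Clk at 7066. These ranks rest on 4 libraries and carry no test.

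**Figure D5:**
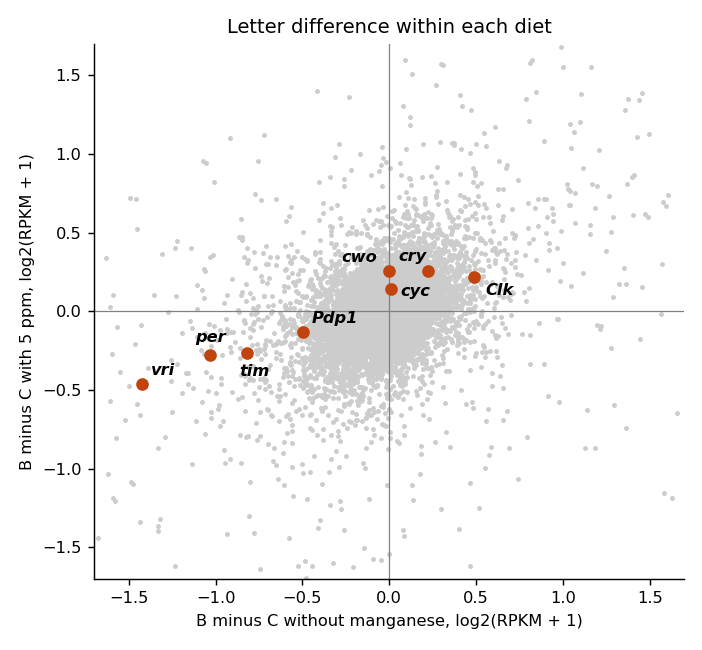
Each point is a tested gene by its B minus C difference in log2(RPKM + 1) without manganese (horizontal axis) and with 5 ppm (vertical axis); grey points are all tested genes with both values within ±1.7, which leaves out 78, and orange points the 8 clock genes. per, tim, vri and Pdp1 lie in the corner where C was higher on both diets, Clk, cry and cyc in the opposite one, and cwo near 0 on the horizontal axis.

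The 8 genes lie on chromosome arms 2L, 3L and 3R and on X of the dm6 assembly, with positions from the Ensembl annotation of the same coordinates. per (FBgn0003068) lies on X from 2685580 to 2692780. tim (FBgn0014396) lies on 2L from 3493986 to 3508119 and vri (FBgn0016076) on 2L from 5288944 to 5311223. Clk (FBgn0023076) occupies 3L from 7763233 to 7775603 and Pdp1 (FBgn0016694) 3L from 7811458 to 7867369. These neighbours, which ran in opposite directions by letter, are 35854 bases apart on the minus strand. Farther along the same arm, cyc (FBgn0023094) spans 19813770 to 19815938. On 3R, cwo (FBgn0259938) spans 10388258 to 10400752 and cry (FBgn0025680) 19212154 to 19215442. The exons of Clk, cyc, vri, Pdp1 and cwo share no base with another annotated gene, and those of per share 1.08% with a gene on the opposite strand.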

How the data were processed

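The file deposited by the authors lists RPKM for 13932 FlyBase identifiers in 4 library columns, each named by diet and letter and so assigned to a diet, not to a numbered sample. The submitters' processing notes list the build dm6 and the tools STAR 2.5.2b and DESeq2, but not what each did. The sources used here name no program that counted reads, and no annotation or strand setting for it. Because RPKM is relative to the library total, a large amount of other RNA lowers all remaining values.

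Symbols came from a FlyBase name table, positions and exon lengths from Ensembl's annotation of BDGP6, the dm6 coordinates. RPKM times exon length gave each library's divisor: 84.6% to 85.6% of values under 20 reads lay within 0.02 of a whole number. Reads of per, cyc, cry and cwo were whole in all 4 libraries; those of the other clock genes are approximate.

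limma 3.58.1 in R 4.3.3 was run on log2(RPKM + 1) for 7556 genes with a mean of at least 1 RPKM, with a trend in the prior variance, 2-sided tests and Benjamini-Hochberg adjustment over all tested genes at 0.05. Differences on this scale understate the change of low genes. The diet fit had 2 residual degrees of freedom, the fit with diet and letter 1. An SE by diet therefore includes the spread between letters, while an SE by letter leaves out the spread between diets. With 2 libraries a diet, the smallest exact permutation p is 0.333, so that test was not used. The fits were tried on simulated data with planted changes larger than those of the clock genes. This does not show how often differences of the clock genes' size would be called.

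Members, lists and tests were chosen with earlier results of these data known. All 8 clock genes are named, and from each further list the 4 genes with the smallest unadjusted p by diet; tws, dco, nmo, jet, Delta and the genes below the filter were named after their values were seen. Dl was matched as Delta; Lsm12, a name tied to more than one gene, and esg were not matched.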

Additional observations from a re-analysis of the deposited data

Results flagged for a closer look

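For 5 clock genes the diet difference had opposite signs in the B and C libraries, and the difference between the letters was not tested, since each diet and letter has 1 library. As no manganese minus 5 ppm in log2(RPKM + 1), per was at -0.25 in B and 0.50 in C, tim at -0.14 and 0.42, and vri at -0.24 and 0.72. Clk was at 0.14 in B and -0.14 in C, and cwo at -0.15 and 0.11. The letter difference of cwo, B minus C, was -0.0023 without manganese and 0.26 with 5 ppm, also untested.

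A signal outside the clock genes was the summed 477 RPKM of ovary markers in the no-manganese library C, against at most 3.06 RPKM in the other 3 libraries. The no-manganese library B stood apart in single genes. Irk3 had 2.503 RPKM there, against at most 0.0901 in the other 3 libraries, and Pdf 0.732 RPKM against 0.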

How the results depend on the processing

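With each alternative in turn, 0 of the clock genes tested were called by diet or by letter. Filters and priors do not enter the estimates, so the signs could not turn with them. Other pseudocounts, scalings and voom on recovered reads left the sign of each clock gene's difference unchanged, except Clk by diet. Clk by diet was at -0.00026 ± 0.20 SE in the fit given above. It was at 0.0032 with a pseudocount of 5 RPKM and 0.016 with voom, and the cause was not tested. With all 4 libraries, the letter difference of per ranged from -0.87 to -0.36. With 1 library left out, the differences by diet ranged from -0.39 to 0.64 for per and -0.27 to 0.55 for tim. Those of vri ranged from -0.48 to 0.95, of Clk from -0.24 to 0.24 and of cwo from -0.15 to 0.11. E23 ranged from -0.10 to 0.27 and Pdfr from -0.29 to 0.16. Pdp1 and to kept their signs, with ranges of 0.04 to 0.53 for Pdp1 and 0.14 to 0.95 for to. For cyc, cry, wdb, tyf, nej, ctrip and Eip75B the sign could not turn, since their values do not overlap between the diets. Among these, cyc ranged from 0.08 to 0.22 and Eip75B from 0.03 to 0.27. The dusk minus dawn difference by diet ranged from -0.21 to 0.90. By letter it was -0.41 within the 5 ppm diet and -1.11 within the no-manganese diet, a comparison added after seeing the data, in which cwo turned to -0.0023 without manganese.

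Over all genes, 0 were called by diet (limma; 441 at an unadjusted p under 0.05, 438 with voom), and 0 to 11 with 1 library left out: 11 without the no-manganese library B and 5 without C. With a library left out, the spread comes from the pair of the other diet and the prior alone, and the lone library is assumed to vary like that pair. By letter 0 were called (1090 unadjusted, 1164 with voom), but 22 with a mean of at least 5 RPKM and 28 with a robust prior.

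No source used here ties the letters to the replicate numbers. Across the 7556 tested genes, the B minus C differences of the diets correlated at r = 0.34. With the replicate block by letter, 0 genes and 0 clock genes were called by diet, with 878 genes at an unadjusted p under 0.05, and cry had an adjusted p of 0.316. With letter alone and no replicate block, 0 genes were called by letter. Each clock gene had at least 303 reads in each library.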
